A study of Mus musculus with 6 samples.

Results

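The insulin-like growth factor (IGF) family described here is a set of 10 genes, the ligands Igf1 and Igf2, the receptors Igf1r and Igf2r, and the binding proteins Igfbp2, Igfbp3, Igfbp4, Igfbp5, Igfbp6 and Igfbp7. They were taken by name from the 31053 genes of a raw count table, and they were chosen by a result of the same mice, since Igf1 was already known to be lower in cD2KO. For that reason the differences between WT and cD2KO given for the 10 genes are a description. Where it is said which of them passed a threshold, this describes the same contrast and is no independent test. RNA came from quiescent muscle stem cells (qMuSCs) of hindlimb muscles, sorted by FACS on the GFP of a Pax7-nGFP reporter, with 1 library per mouse. The 3 WT mice (c124, c129 and c130) were Pax7nGFP/+;Pax7+/+;Dio2Fl/Fl and the 3 cD2KO mice (fl125, fl126 and fl128) were Pax7nGFP/+;Pax7-CreERT2/+;Dio2Fl/Fl. All 6 mice were 3 to 4 months old, carried floxed alleles of Dio2, the gene of the deiodinase D2 that makes active thyroid hormone, and had received tamoxifen. Pax7-CreERT2, a recombinase driven by Pax7 and switched on by tamoxifen, was present only in cD2KO, so the Cre allele and the loss of Dio2 cannot be told apart.

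IGF-1 and IGF-2 are small secreted proteins that bind the receptor tyrosine kinase IGF1R, which signals through the adaptors IRS and SHC to the PI3K, Akt and mTOR pathway and to the Ras and MAPK pathway. IGF2R, the cation-independent mannose 6-phosphate receptor, has no kinase and takes IGF-2 into the cell for degradation. The binding proteins hold IGFs outside the cell, and proteases such as pappalysin-1 cut some of them and set the ligand free. In muscle, IGF-1 is known for promoting growth of fibers and proliferation of myoblasts, and muscle fibers, macrophages and fibroblasts are known to make it.

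Total counts were between 2184073 and 3897787 per mouse, and 3 counts corresponded to 0.768 to 1.36 CPM (counts per 1000000 counts of a library). Levels under this limit could not be separated from 0 on counting error alone. Dio2, the targeted gene, had 21, 5 and 10 counts in the WT mice and 15, 5 and 1 in the cD2KO mice, and its highest scaled level of the 6 mice, 6.79 CPM, was in the library labelled fl125, against its label. The qMuSC label was checked with 12 markers of muscle stem cells, all of which were detected in every mouse, with a summed level of 1722 to 2265 CPM in WT and 2027 to 3263 CPM in cD2KO. Of the 12, 3 (Myf5, Cdh15 and Itga7) were higher in cD2KO and 0 lower at an unadjusted p under 0.05 from edgeR. Over all genes tested, 5.34% were higher and 6.62% lower. Markers of other cells were also present. Those of red blood cells summed to between 3417 and 22300 CPM, those of Schwann cells to between 4387 and 6954 CPM, above the muscle stem cell markers in every mouse, those of myofibers to between 1335 and 4601 CPM, those of tenocytes to between 143 and 817 CPM and those of mural cells, the contractile cells around vessels, to between 5482 and 16380 CPM. The library labelled fl125 stood apart, with 202 CPM of macrophage and other leukocyte markers against 1850 and 2050 CPM in the other cD2KO mice. It also had the highest sums of the 6 mice for muscle stem cell markers, 3263 CPM, and Schwann cell markers, 6954 CPM. Its sums for red blood cells, 3417 CPM, and tenocytes, 143 CPM, were the lowest. Values with and without fl125 are therefore given below, and neither is preferred. In RNA of a bulk sample, fewer cells of a type and less RNA per cell cannot be told apart.

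Thyroid hormone receptors bind DNA half-sites with the letters AGGTCA, and since Dio2 controls the hormone that these receptors bind, the starts of the family genes were searched for it. The search covered AGGTCA and its reverse complement TGACCT, which do not overlap each other, in the 250 bases before each transcription start in the RefSeq promoter table (GRCm38.p6). All 10 genes had a window and 14 windows were found in all. A match was present in 4 of the 14, each in a different gene, Igf1, Igf2, Igf1r and Igf2r, and in none of the windows of the binding proteins. Over all genes, 14.0% of the 32851 windows held a match. Igf2 had several windows, and only the most upstream of them held a match. So short a sequence is found in many windows, and nothing about the family is read from this count. The 30 bases around each match are shown 5′ to 3′ on the strand of the gene, with the half-site in capitals.
Igf1: ctcagggaagagAGGTCAgctgcctagagc
Igf2: gcaccagtggctTGACCTctctgtgtctat
Igf1r: cgtgctcggcttTGACCTtcagcgagccgg
Igf2r: ggcgggggcgggccgactcAGGTCAcgtga
The Igf1 stretch lies at chr10:87860938-87860967 on the plus strand, with the match beginning 161 bases before the start, in a stretch that GENCODE M21 annotates as exon of longer Igf1 transcripts and that Igf1os spans on the opposite strand. That of Igf1r lies at chr7:67952159-67952188 on the plus strand, 86 bases before the start and outside annotated genes. The Igf2 stretch is at chr7:142667033-142667062 on the minus strand, 234 bases before the most upstream of its starts, and that of Igf2r at chr17:12769707-12769736 on the minus strand, 11 bases before the start, where the antisense RNA Airn runs. These matches are a description of letters, and binding was not measured here.

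Igf1 (ENSMUSG00000020053), which encodes the ligand IGF-1 and spans chr10:87858265-87937042 of mm10 on the plus strand, was lower in each cD2KO mouse than in every WT mouse. Its level was 141, 175 and 179 CPM in WT (c124, c129, c130, the order kept for every gene) and 82.0, 87.9 and 82.6 CPM in cD2KO (fl125, fl126, fl128). The groups did not overlap, and the cD2KO mice lay close together while c124 was the lowest of the WT mice. The means were 165 ± 20.9 in WT and 84.2 ± 3.26 in cD2KO, in CPM (SD, n = 3 mice each), so that the mean in cD2KO was 0.511 of that in WT. The log2 fold change from edgeR was -0.97 (standard error, SE, 0.19), and without fl125 it was -0.91. Raw counts behind these values were 549, 473 and 516 in WT and 181, 257 and 263 in cD2KO. The antisense gene Igf1os, which overlaps Igf1, had at most 3 counts in any mouse.

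Igf2, the imprinted gene of the other ligand, was expressed at a lower level per kilobase of exon than Igf1 in every mouse, and also in CPM. It was at 23.6, 23.3 and 24.6 CPM in the WT mice and at 20.4, 41.0 and 34.5 CPM in the cD2KO mice. The WT mice were close together, whereas fl125 was below all of them and fl126 and fl128 above all of them. The means were 23.8 ± 0.690 and 32.0 ± 10.6 CPM (SD, n = 3 each), with a log2 fold change of 0.43 (SE 0.30). Without fl125 the log2 fold change was 0.70. Igf2 spans chr7:142650766-142666816 on the minus strand, and its antisense gene Igf2os had at most 2 counts.

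Igf1r, the gene of the signaling receptor, was at 138, 150 and 98.3 CPM in WT and at 180, 115 and 120 CPM in cD2KO. The groups overlapped, with fl125 the highest and c130 the lowest of the 6 mice. Its means were 128.5 ± 26.8 and 139 ± 36.2 CPM (SD, n = 3 each) and its log2 fold change 0.10 (SE 0.23). The sign turned without c130, at -0.03, and without fl125, at -0.09. Igf1r spans chr7:67952827-68233668 on the plus strand. Igf2r, the gene of the clearance receptor, was at 28.7, 23.3 and 22.2 CPM in WT and at 39.4, 19.2 and 10.1 CPM in cD2KO, where the highest and the lowest of all 6 mice were both found. Its log2 fold change was -0.14 (SE 0.41), and it was -0.73 without fl125 and 0.23 without fl128. It spans chr17:12682406-12769664 on the minus strand. Reads on Igf2r are uncertain, since Airn overlaps it on the opposite strand with 190 to 487 counts and the use of strand in counting is not given in the sources used here.

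Among the binding proteins, Igfbp5, one of the binding proteins that pappalysin-1 cuts, was at 836, 534 and 759 CPM in the WT mice and at 968, 910 and 964 CPM in the cD2KO mice. All cD2KO mice were above all WT mice, and the WT mouse c129 was the lowest. The means were 710 ± 157 and 947 ± 32.4 CPM (SD, n = 3 each), with a log2 fold change of 0.42 (SE 0.21), which did not pass the threshold used here (unadjusted p under 0.05). Without fl125 its log2 fold change was 0.44, and without c124 it was 0.55 and passed the threshold. Igfbp5 lies at chr1:72857932-72874884 on the minus strand, and Igfbp2 next to it at chr1:72824503-72852474 on the plus strand.

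Igfbp4, whose product binds both ligands and is the best known target of pappalysin-1, was at 377, 304 and 459 CPM in WT and at 372, 426 and 606 CPM in cD2KO. The ranges overlapped, with fl125 below the WT mouse c124 and fl128 the highest of all. The log2 fold change was 0.30 (SE 0.23) with all mice and 0.48 without fl125. Igfbp7, which encodes a secreted protein of low affinity for IGFs, was at 883, 911 and 838 CPM in WT and at 747, 1096 and 1381 CPM in cD2KO. As for Igf2, fl125 was below every WT mouse and the other cD2KO mice were above every WT mouse. Its log2 fold change was 0.29 (SE 0.23) with all mice and 0.54 without fl125. Igfbp4 spans chr11:99041244-99054392 on the plus strand and Igfbp7 chr5:77349240-77408041 on the minus strand. Polr2b, a gene on the opposite strand that overlaps Igfbp7, had 33 to 83 counts.

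Igfbp6, whose product prefers IGF-2 over IGF-1, was at 481, 554 and 440 CPM in WT and at 220, 480 and 681 CPM in cD2KO. The WT mice differed little, while the cD2KO mice included both the lowest and the highest value. The means were 492 ± 57.9 and 460 ± 231 CPM (SD, n = 3 each). Its log2 fold change of -0.09 (SE 0.33) became 0.28 without fl125 and 0.03 without c129. Igfbp6 spans chr15:102144362-102149511 on the plus strand. The summed markers of fibroadipogenic progenitors were also lowest in fl125, at 2953 CPM against 4777 and 6011 CPM in fl126 and fl128. In WT the sum was 4639 to 7556 CPM, so the groups overlapped. Of these 12 markers 11 were tested, and only Pi16 was at 0 in any mouse. In cD2KO 1 was higher and 3 were lower, beside 5.34% and 6.62% of all genes tested. Sums for leukocytes, red blood cells, tenocytes, mural cells and myofibers also rose from fl125 to fl126 to fl128. Those for muscle stem cells, Schwann cells and endothelial cells did not. The part of any of these cells in the spread of Igfbp6 was not tested.

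Igfbp3, the gene of the main carrier of IGFs in blood, was low, at 10.5, 4.43 and 2.08 CPM in WT and at 2.26, 3.42 and 3.45 CPM in cD2KO. The WT mouse c124 was above the other 5 mice, and the log2 fold change of -0.90 had a standard error of 0.69. Igfbp3 spans chr11:7206086-7213923 on the minus strand. Igfbp2 had 3, 0 and 0 counts in WT and 2, 5 and 2 counts in cD2KO. It was below the minimum on expression, a mean of more than 10 DESeq2-normalized counts, and a difference in Igfbp2 was not detectable at this depth.

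Of the 10 family genes 9 passed this minimum. With edgeR's quasi-likelihood test and a threshold of 0.05 on the unadjusted p, 1 of the 9, Igf1, was called lower and 0 were called higher. Among the 11633 genes tested, 770 were called lower, or 6.62%, and 621 were called higher, or 5.34%. In 2 of the 9, Igf1 below and Igfbp5 above, all cD2KO mice lay on one side of all WT mice, as in 18.1% of the genes tested. The median log2 fold change was 0.10 over the 9 family genes and -0.02 over all genes tested. Without fl125, Igf2, Igfbp4 and Igfbp7 were called higher and Igf1 lower, where 7.93% of 11769 genes were called higher and 7.43% lower. Since the choice of the family used this contrast, nothing is read from these counts.

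**Figure D1:**
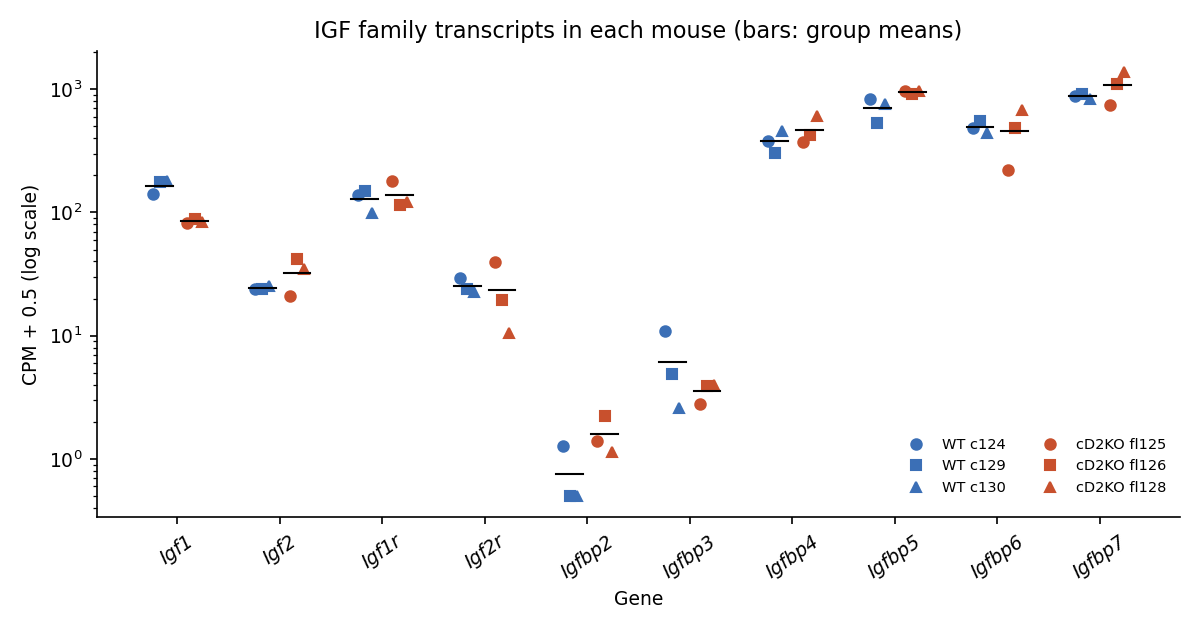
Level of the 10 IGF family genes in each of the 6 mice, in CPM + 0.5 on a log axis, with points for WT (blue) and cD2KO (red) mice and black lines for group means. Igf1 lies between 141 and 179 CPM in WT and between 82.0 and 87.9 CPM in cD2KO, while Igf2, Igfbp6 and Igfbp7 are lowest in fl125.

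**Figure D2:**
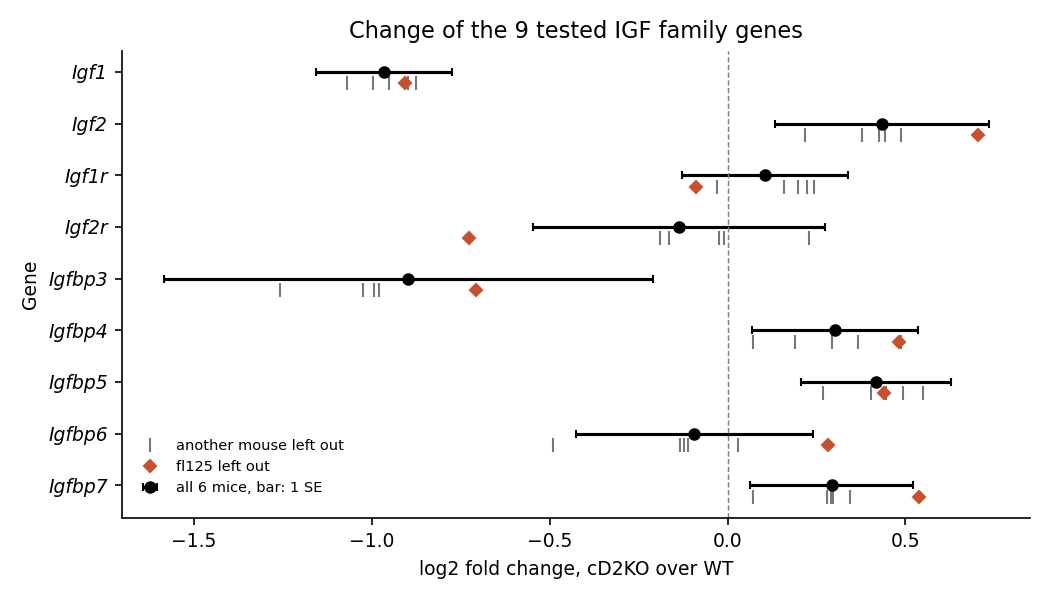
Log2 fold change of cD2KO over WT for the 9 tested family genes, with all 6 mice (black point, bar of 1 standard error), with fl125 left out (red diamond) and with each other mouse left out (grey ticks). Igf1 stays between -1.07 and -0.88 when single mice are left out, and Igf1r, Igf2r and Igfbp6 fall on both sides of 0.

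Igfbp4, Igfbp5, Igfbp6 and Igfbp7 were the most abundant transcripts of the family, and Igfbp3 and Igfbp2 the least abundant. Per kilobase of annotated exon, the order of mean levels over the 6 mice was Igfbp7, Igfbp6, Igfbp5, Igfbp4, Igf1, Igf1r, Igf2, Igf2r, Igfbp3 and Igfbp2. In WT mice the level per kilobase was 726 ± 30.3 CPM for Igfbp7, 442 ± 52.1 CPM for Igfbp6, 118 ± 26.2 CPM for Igfbp5 and 86.0 ± 17.6 CPM for Igfbp4 (SD, n = 3). It was 16.6 ± 2.11 CPM for Igf1, 7.65 ± 1.60 CPM for Igf1r, 4.16 ± 0.121 CPM for Igf2 and 2.65 ± 0.375 CPM for Igf2r. Over the 6 mice the ranges of Igfbp7 and Igfbp6 per kilobase, 618 to 1142 and 198 to 612 CPM, did not overlap, nor did those of Igfbp6 and Igfbp5 or of Igfbp4 and Igf1. The ranges of neighbours overlapped for Igfbp5 and Igfbp4, for Igf1 and Igf1r, for Igf1r and Igf2, and for each pair below these. Igf1 was at the 88.5th percentile of mean CPM among the genes tested, Igf1r at the 89.4th and Igfbp7 at the 99.2nd.

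In CPM with no correction for length the order was Igfbp7, Igfbp5, Igfbp6, Igfbp4, Igf1r, Igf1, Igf2, Igf2r, Igfbp3 and Igfbp2, so 4 genes changed place. The library service is named digital RNA-seq, and whether reads were spread over the transcript is not given in the sources used here. The tested protein-coding genes were put in 4 groups by exon length, with median lengths of 2040 to 9561 bases. From the shortest group to the longest, the median level was 26.2, 24.1, 24.3 and 32.7 CPM. The order by CPM is therefore given beside the order per kilobase.

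Of the summed CPM of the 6 binding protein genes, Igfbp7 took 35.7 ± 3.27% in WT and 36.0 ± 3.15% in cD2KO (SD, n = 3 mice each). The share of Igfbp5 was 32.3, 23.1 and 30.4% in the WT mice and 41.9, 31.2 and 26.5% in the cD2KO mice, and the groups overlapped. Igfbp6 had 18.6, 24.0 and 17.6% in WT and 9.51, 16.5 and 18.7% in cD2KO, with fl125 the lowest. For Igfbp4 the share was 15.4 ± 2.69% in WT and 15.8 ± 1.07% in cD2KO, while Igfbp3 and Igfbp2 reached at most 0.406 and 0.0586% in any mouse. Per kilobase of exon, Igfbp7 took 52.8 ± 0.504% in WT and 57.0 ± 1.29% in cD2KO, and Igfbp6 32.1 ± 2.83% in WT and 25.2 ± 5.87% in cD2KO (SD, n = 3 each), so that the means of Igfbp7 were further apart than the SDs on this scale and closer than the SDs in CPM. The sum itself was 2588, 2307 and 2498 CPM in WT and 2310, 2917 and 3636 CPM in cD2KO. With Igf1 set against this sum, there were 5.43, 7.57 and 7.15 CPM of Igf1 per 100 CPM of binding proteins in WT and 3.55, 3.01 and 2.27 in cD2KO. The 2 groups did not overlap in this ratio, and its Igf1 part is the value by which the family was chosen.

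**Figure D3:**
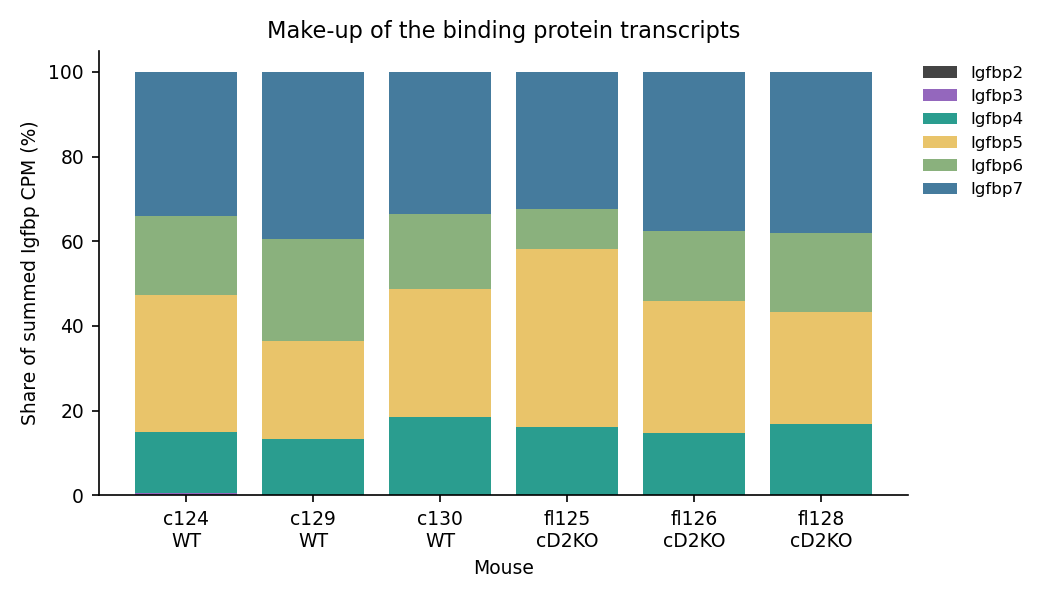
Share of each binding protein gene in the summed CPM of the 6 Igfbp genes, in percent, as a stacked bar for each mouse. Igfbp7 and Igfbp5 make up most of each bar, and the band of Igfbp6 is narrowest in fl125 at 9.51%.

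Of the markers of other cells, those of macrophages and other leukocytes had a lower sum in each cD2KO mouse than in every WT mouse, as Igf1 did. All 13 were tested, 5 were called lower and 0 higher, and their summed level was 3547 to 6287 CPM in WT and 202 to 2050 CPM in cD2KO, with Cd14 and Cx3cr1 at 0 in at least 1 mouse. In fl125, fl126 and fl128 this sum was 202, 1850 and 2050 CPM, and Igf1 was at 82.0, 87.9 and 82.6 CPM. Endothelial markers, 10 of 12 tested, were called lower in 6 cases and higher in 0, with sums of 261 to 392 CPM in WT and 207 to 263 CPM in cD2KO and with Tie1, Cldn5 and Erg at 0 in at least 1 mouse. The sum of mural markers was higher in each cD2KO mouse, at 5482 to 9350 CPM in WT and 11190 to 16380 CPM in cD2KO, with none at 0. Of the 10, 5 were called higher and 0 lower. Those called were Acta2, Myh11, Tagln, Cnn1 and Mcam, the first 4 of which are contractile genes of smooth muscle, and Acta2 and Myh11 made up most of the sum, with means of 2658 and 2179 CPM in WT and 5973 and 4347 CPM in cD2KO. The other 5, Rgs5, Pdgfrb, Cspg4, Kcnj8 and Abcc9, overlapped between the groups, with log2 fold changes of -0.36 to 0.25. Over all genes tested, 6.62% were called lower and 5.34% higher. The part of these cells in the levels of Igf1, Igfbp5 and Igfbp7 was not tested.

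**Figure D4:**
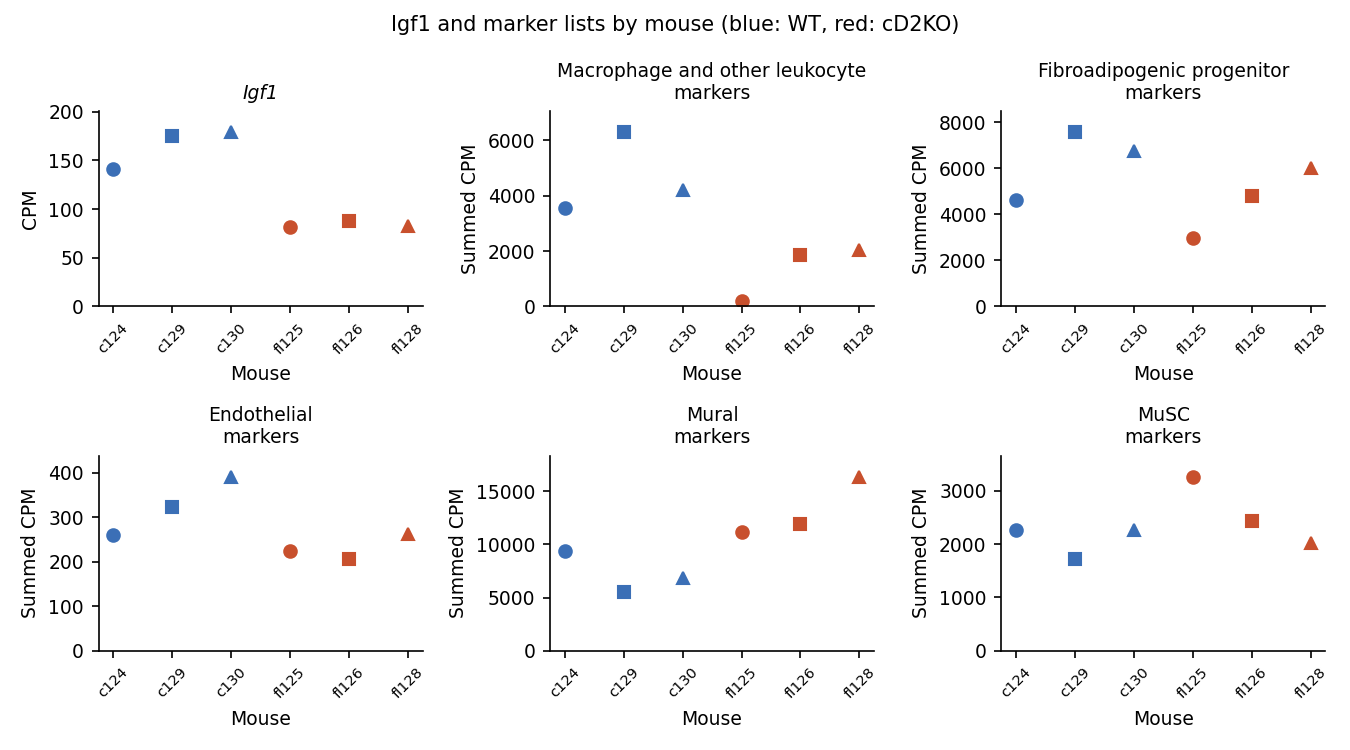
Igf1 in CPM and the summed CPM of 5 lists of cell type markers in each mouse, WT in blue and cD2KO in red, each panel with an axis from 0. Igf1 is between 141 and 179 CPM in WT and between 82.0 and 87.9 CPM in cD2KO. Leukocyte markers sum to between 3547 and 6287 CPM in WT and between 202 and 2050 CPM in cD2KO.

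The 5 genes whose pattern over the 6 mice was nearest to that of Igf1 were Ap2a2, Uap1l1, Ctsz, Smoc2 and Limd2. Likeness was measured as the root mean square difference of log2 CPM, each gene centred on its own mean, among 9151 genes with a mean of at least 10 CPM. The difference from Igf1 was 0.0705 for Ap2a2, a subunit of the AP-2 clathrin adaptor, 0.0844 for Uap1l1, 0.120 for Ctsz, the gene of the lysosomal protease cathepsin Z, 0.129 for Smoc2, which encodes a matricellular protein, and 0.139 for Limd2. The median over the 9151 genes was 0.582. Since these 5 genes were picked for likeness to Igf1, their small differences and lower levels in cD2KO follow from the choice and are a description. Ap2a2 was at 89.9, 106 and 116 CPM in WT and 55.3, 55.4 and 47.7 CPM in cD2KO, and Ctsz at 115, 162 and 147 CPM in WT and 85.6, 77.0 and 76.6 CPM in cD2KO.

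The rest of the pathway was read from a list of 62 genes, of which 51 were tested. With the same edgeR test and threshold 3 of the 51 were higher and 2 were lower, beside 5.34% and 6.62% of all genes tested. The median log2 fold change of the list was 0.01. In 2 of the 51 all cD2KO mice lay above all WT mice, and in 3 below. Over all genes tested, 18.1% were apart in either direction. When p-values were adjusted by Benjamini-Hochberg across the 11633 genes, 0 of the 51 had an edgeR adjusted p under 0.05 and 1 had one under 0.1. Among all 11633 genes, 1 had an edgeR adjusted p under 0.05 and 90 had one under 0.1, so few genes of any list could pass. Without fl125, 5 were higher and 4 lower, beside 7.93% and 7.43% of the 11769 genes tested in that fit. Those added included Gsk3a and Rps6kb1, with log2 fold changes of 0.65 and -0.53.

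Of 8 genes that set the availability of the ligands, 3 were tested and 1 was lower, beside 6.62% of all genes tested. Pappa encodes pappalysin-1, the protease that cuts Igfbp4 and Igfbp5. It was at 8.96, 9.23 and 9.0 CPM in WT and at 1.36, 3.08 and 1.88 CPM in cD2KO. All cD2KO mice lay under the WT mice, with a log2 fold change of -2.06 (SE 0.59, adjusted p from edgeR = 0.151). Counts were low, 35, 25 and 26 in WT and 3, 9 and 6 in cD2KO, with fl125 at the limit of 3 counts. Pappa2, the gene of a related protease, was under the expression minimum and was named after its values were seen. It was at 2.56, 3.69 and 1.38 CPM in WT and at 0 in all 3 cD2KO mice, which is at least 2.30-fold lower when 3 counts per cD2KO library are taken as the limit.

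Of the 5 genes of the growth hormone axis, through which growth hormone raises Igf1 in liver and other tissues, 1 was lower. Over all genes tested, 6.62% were lower. Ghr, the growth hormone receptor gene, was at 43.3, 37.3 and 33.2 CPM in WT and at 27.2, 19.5 and 21.7 CPM in cD2KO. The groups did not overlap, and the log2 fold change was -0.74 (SE 0.27, adjusted p from edgeR = 0.277). The call was lost without c124 and without fl126, at -0.64 each. The other members, Jak2, Stat5a, Stat5b and Socs2, did not pass the test.

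All 24 genes of the PI3K, Akt and mTOR group were tested, 2 were higher and 0 lower, beside 5.34% and 6.62% of all genes tested. Rps6kb2, which encodes an S6 kinase downstream of mTOR, was at 48.9, 53.2 and 40.8 CPM in WT and at 90.6, 104 and 88.2 CPM in cD2KO. Every cD2KO mouse was above every WT mouse, and the log2 fold change was 0.98 (SE 0.20, adjusted p from edgeR = 0.0885). Foxo4, a forkhead transcription factor that Akt keeps out of the nucleus, was at 121, 112 and 103 CPM in WT and at 134, 138 and 185 CPM in cD2KO, a log2 fold change of 0.45 (SE 0.20, adjusted p from edgeR = 0.396). Its groups did not overlap, but the call was lost in 7 of 13 other fits, among them each fit without one mouse other than fl125, where the log2 fold change was 0.28 to 0.52.

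Of the 10 tested Ras and MAPK genes, 1 was higher, beside 5.34% of all genes tested. Mapk3, the gene of the kinase ERK1, was at 133, 72.7 and 77.9 CPM in WT and at 151, 142 and 130 CPM in cD2KO. The WT mouse c124 reached the range of the cD2KO mice, and the log2 fold change was 0.57 (SE 0.24, adjusted p from edgeR = 0.367). Its call was lost without c129, c130 or fl126, at 0.44, 0.48 and 0.57. Among the adaptors 7 of 8 were tested and 0 passed the test. The most abundant were Grb2, with a log2 fold change of 0.01 (SE 0.19) at 165 ± 14.9 in WT and 165 ± 23.0 in cD2KO, and Grb10, with a log2 fold change of 0.10 (SE 0.21) at 95.1 ± 19.6 and 102 ± 13.7 CPM (SD, n = 3 each). Insr, the insulin receptor gene, was the one gene tested of the 4 insulin and insulin receptor genes, with a log2 fold change of -0.04 (SE 0.30) at 30.9 ± 8.85 CPM in WT. Ins2, next to it in level, had means of 1.16 CPM (WT) and 0.453 CPM (cD2KO) and was not tested. Of the 3 genes whose products bind Igf2 mRNA, Igf2bp2 was tested, with 8.25 ± 2.69 in WT and 7.37 ± 0.287 CPM in cD2KO and a log2 fold change of -0.15 (SE 0.48), and Igf2bp1 was near 0.

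**Figure D5:**
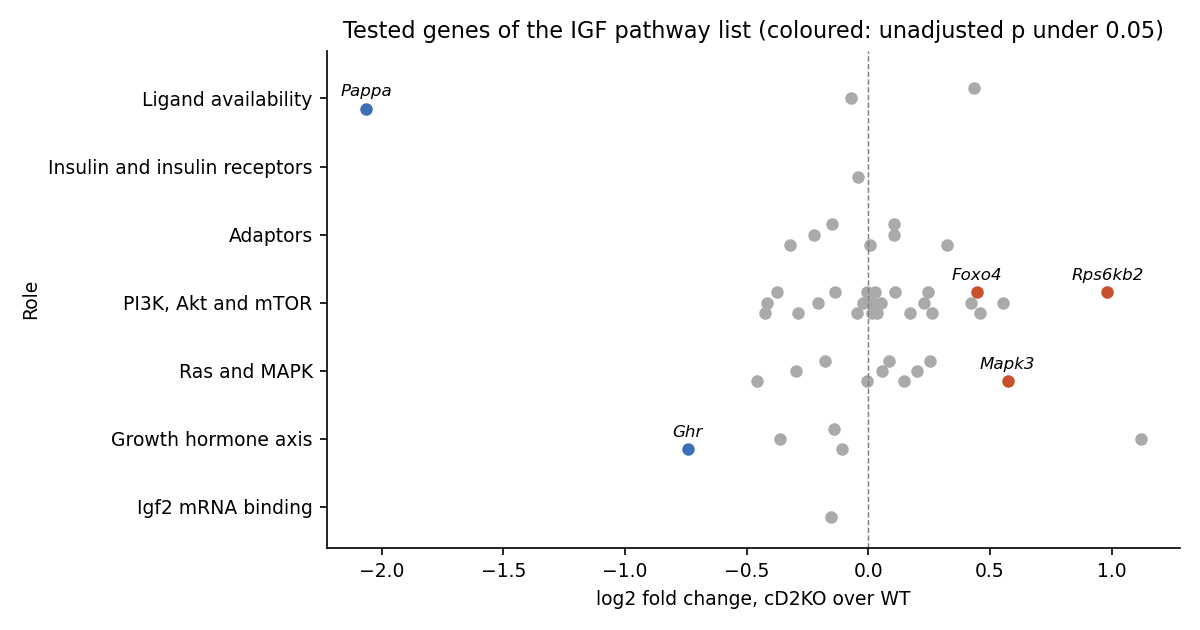
Log2 fold change of cD2KO over WT for the 51 tested genes of the pathway list, one row for each role, with genes called higher in red, called lower in blue and others in grey. Pappa at -2.06 and Ghr at -0.74 lie on the lower side, and Rps6kb2 at 0.98, Mapk3 at 0.57 and Foxo4 at 0.45 on the higher side.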

How the data were processed

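RNA-seq of qMuSCs from 3 WT and 3 cD2KO mice was read from the raw counts per gene that the authors deposited, in whole numbers and without normalization. The submitters' processing notes name bcl2fastq, STAR 2.6.0a, HTSeq 0.9.1 and mm10. Which annotation was counted, whether strand was used and what was done with PCR duplicates is not given in the sources used here. Symbols, positions and exon lengths came from GENCODE M21, in which 30934 of 31053 identifiers were found. The minimum on expression was the one of the study, a DESeq2-normalized mean over 10. After TMM scaling, counts entered a robust quasi-likelihood test (edgeR 4.0.16, R 4.3.3) of the 6 mice without covariates, with Benjamini-Hochberg adjustment over all genes tested. A gene was called at an unadjusted p under 0.05, the threshold of the study. Standard errors are the absolute log2 fold change divided by the square root of F, log2 CPM for profiles used a prior count of 2, and SDs are between mice. Nothing in the labels says more of the replicates than that each is a mouse, and p-values measure the spread between these 3 and 3.

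The members and lists were chosen with earlier results of these data known. Named were the 10 family genes, every called gene of the pathway list or, in a role with no call, the 2 most abundant, and the 5 profiles nearest to Igf1, while genes named otherwise were chosen after their values were seen. No 2 libraries agreed within sampling noise, chi-square per degree of freedom being at least 8.69 for each pair. The edgeR step was tested on simulated data drawn at the depths of these mice. As alternatives, the DESeq2 1.42.0 Wald test, DESeq2 size factors or total-count scaling in edgeR, no minimum, filterByExpr, a minimum mean of 50, no robust estimation, adjusted p thresholds of 0.05 and 0.1, and leaving out each mouse were run. Protein sequences were not used here. Some single-gene results of the pathway list are not reported here.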

Additional observations from a re-analysis of the deposited data

How the results depend on the processing

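The log2 fold change of Igf1 was -1.07 to -0.88 over 13 other fits of the same mice, the contrast by which the family was chosen, which is no independent support. Its adjusted p was 0.00486 with the DESeq2 Wald test. From edgeR it was 0.0885 in the main fit, 0.003825 with no minimum, 0.0314 without fl125 and 0.382 without c129. The count of family genes called lower was 1 in each fit. In the main fit it was 0 at an edgeR adjusted p under 0.05, which 1 of all 11633 genes tested had. The count called higher was 1 with the DESeq2 Wald test and 1 with no minimum, Igfbp5 both times, and 0 to 3 with single mice left out, 1 without c124 (Igfbp5) and 3 without fl125. Signs turned with single mice left out for Igf1r (-0.089 to 0.24, with -0.031 without c130), Igf2r (-0.73 to 0.23) and Igfbp6 (-0.49 to 0.28, with 0.029 without c129). Of the pathway list, 1 gene was lower at a minimum mean of 50, which Pappa, with a mean of 16.0 normalized counts, did not reach. The lower count was 0 in the main fit at an adjusted p under 0.05 or under 0.1. It was 1 (without fl126) to 4 (without fl125) with single mice left out. The higher count of 3 became 0 at an adjusted p under 0.05 and 1 at one under 0.1, both in the main fit. With single mice left out it was 1 (without c129, c130 or fl126) to 5 (without fl125). For Rps6kb2 the adjusted p was 0.00682 with the DESeq2 Wald test, and from edgeR 0.02275 without fl125 and 0.382 without c129. The cause of the changes with single mice left out was not tested. Rps6kb2 was called in 13 of 13 fits, Pappa in 12 of 12, Ghr in 11, Mapk3 in 10 and Foxo4 in 6 of 13. With no length correction 4 family genes changed rank. Per kilobase, the WT shares of Igfbp4, Igfbp5, Igfbp6 and Igfbp7 were 6.29, 8.63, 32.1 and 52.8%.

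Over all genes, total-count scaling gave 945 lower and 445 higher genes against 770 and 621 with TMM, both among 11633 tested. Other fits tested other numbers of genes, so their counts are given with these. The test without a minimum gave 939 higher among 18040, and a minimum mean of 50 gave 505 lower among 7353. Leaving out fl125 gave 933 higher among 11769, leaving out fl128 402 higher among 11634, and leaving out c129 399 lower among 11537. Depth limits what can be said of Igfbp2, Igfbp3, Pappa and Pappa2. No paired analysis was possible because the labels number no replicates, and the numbers used here only name different mice.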
